A study of Mus musculus with 6 samples.

Results

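Tumor 1 of mouse 1, 1 of 6 liver tumors profiled by bulk RNA sequencing, differed from the other 5 in 1472 of the 14356 genes that reached 1 TPM (a transcript level corrected for length and scaled to the same total in every library) in at least 1 tumor. It is called the index tumor from here on. The genes were selected on their measured values. A gene was taken as higher or lower when its TPM plus 1 in the index tumor was at least 10-fold above or below that of the median of the other 5 tumors, and when its value lay outside their whole range. By this rule 858 genes were higher (5.98% of the genes tested) and 614 were lower (4.28%, or 10.5% of the 5873 genes whose median in the other tumors was high enough for a 10-fold fall on this scale). These values chose the genes, so they are given as a description with no test, nothing is read from the shares themselves, and 1 tumor against 5 has no replicate check of its own.

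The tumors came from 2 CMRtdT mice, 3 tumors from each, and no untreated liver or control tumor was part of the comparison. CMRtdT mice carry a conditional *Ctnnb1* allele (exon 3 flanked by loxP sites, on 1 chromosome) whose recombination leaves a stabilized β-catenin, the *MUP-uPA* transgene, which injures hepatocytes by making urokinase in them, and a tdTomato reporter that Cre switches on. Recombination was started in hepatocytes by AAV8-TBG-Cre, a viral vector whose TBG promoter is active in hepatocytes, given at 8 weeks of age to animals kept on a high-fat diet from 6 weeks, and macroscopic tumors were excised 6.5 months later. All 6 tumors therefore shared genotype, diet, vector and time, the study used males, and the comparison sets 1 tumor against others of the same condition.

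In the Wnt pathway, secreted Wnt proteins bind Frizzled receptors and LRP co-receptors and so keep β-catenin from being degraded by a complex built on Axin, Apc and the kinase Gsk3b. Stabilized β-catenin then acts with TCF/LEF factors on target genes, many of which encode inhibitors of the pathway itself. In adult liver this pathway sets the program of pericentral hepatocytes, which express glutamine synthetase and much of the drug-metabolizing P450 system, while hepatocyte identity as a whole rests on a network of liver-enriched transcription factors.

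Library totals ran from 19130532 to 27681766 estimated counts, with 21604769 in the index tumor, so depth did not set it apart. Mitochondrial genes took 6.85% of its counts against 8.27 to 18.4% in the others, and 13018 genes reached 1 TPM in it against 10339 to 11675. The median gene tested was 0.96 higher in the index tumor on the log2 scale, and this shift is part of every fold given in TPM. After scaling by the median of ratios, which brings that shift to 0.12, the same rule called 447 higher and 838 lower genes, so that higher genes made up 34.8% of the calls in place of 58.3%. All 614 lower genes and 447 of the 858 higher genes were retained under it. The scaling divides the index tumor by 1.761, so lower calls could hardly be lost and their retention is no check. Tumors 2 and 3 of mouse 1 were much closer to each other than any other pair (median chi-square per gene 1.44, against 6.88 to 24.6 for the other 9 pairs among the 5 and 0.455 for counting error alone). They are labeled as 2 tumors and were kept as 2 samples. Their excess over counting error does not show that they were independent. Counting them as 1 sample gave 914 higher and 583 lower genes. Pairs that included the index tumor stood at 199.3 to 242, with 1391 to 1742 genes over 10-fold apart, against 14 to 69 such genes within the other 5.

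**Figure D1:**
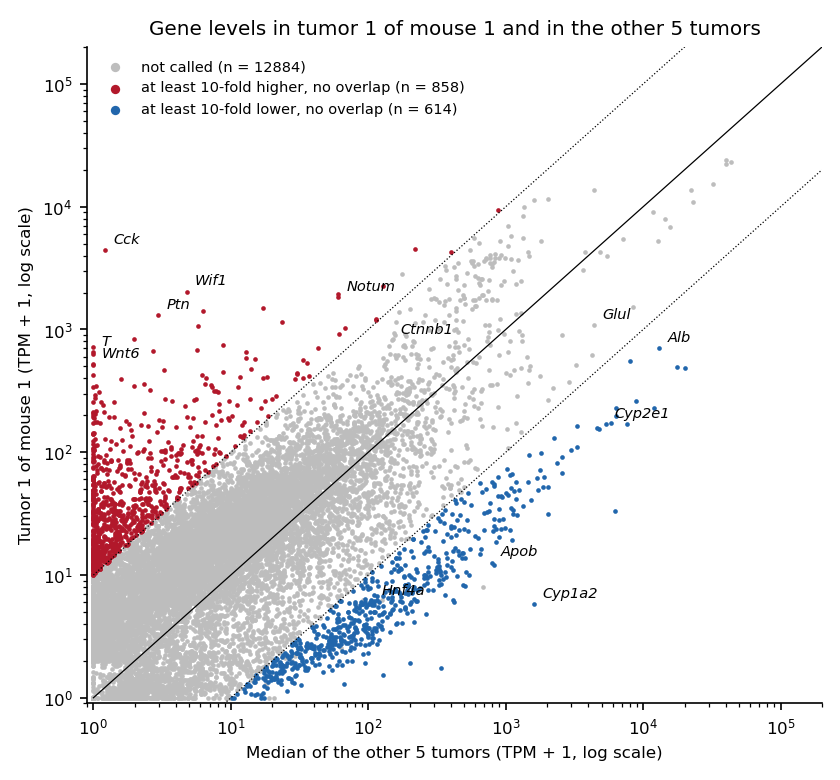
Each point is 1 gene, with the median TPM + 1 of the other 5 tumors on the horizontal axis and TPM + 1 in tumor 1 of mouse 1 on the vertical axis, both on log10 scales. The 858 higher genes lie above the 10-fold line and the 614 lower genes below it, from *Cck* at one end to *Cyp1a2* at the other.

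The higher genes took 10.4% of all TPM in the index tumor and 0.267 to 0.550% in the other 5. The lower genes took 1.00% in the index tumor and 23.8 to 31.1% elsewhere. At least 100 TPM was reached by 170 of the higher genes and at least 1000 TPM by 16 of them, among them *Cck*, *Ptn*, *Wif1*, *Fxyd6*, *Pycr1*, *Vim*, *Stmn1*, *Notum* and *Pkm*. Of the 110 genes with a median of at least 1000 TPM in the other tumors, 49 were among the lower genes. Depth behind the higher genes was mostly ample, with a median of 1621 estimated counts in the index tumor, and only 16 of them rested on fewer than 100 counts.

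The 6 genes proposed as markers of the contrast behaved as a group of 4 higher and 2 lower. *Cck* encodes the peptide hormone cholecystokinin, made by gut endocrine cells and neurons, and was the gene with the largest fold, 3640.0-fold on TPM + 1. Its level was 4455 TPM in the index tumor, 103 and 84.9 TPM in the other tumors from the same mouse, and 0, 0 and 0.224 TPM in mouse 2. *T*, the T-box factor brachyury of the embryonic primitive streak and notochord, was at 651 TPM in the index tumor, 10.4 and 11.3 TPM in the other tumors of mouse 1 and 0 TPM in the 3 tumors of mouse 2. *Wif1*, a secreted Wnt inhibitor, stood at 2029 TPM, against 34.5 and 37.1 TPM in mouse 1 and 0.879, 0.443 and 3.76 TPM in mouse 2. All 3 genes showed the same order, with the index tumor far above, the other tumors of its mouse at low levels and the tumors of mouse 2 at or near 0. Whether such low values in tumors 2 and 3 were their own expression was not tested. *Alb*, serum albumin, was at 702 TPM in the index tumor against 16079 and 16603 TPM in mouse 1 and 8348, 8517 and 13112 TPM in mouse 2. *Cyp2e1*, a pericentral P450 enzyme, was at 169 TPM against 8422 and 9001 TPM in mouse 1 and 5329, 4285 and 4978 TPM in mouse 2. The index tumor was lowest for both genes by a wide margin.

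**Figure D2:**
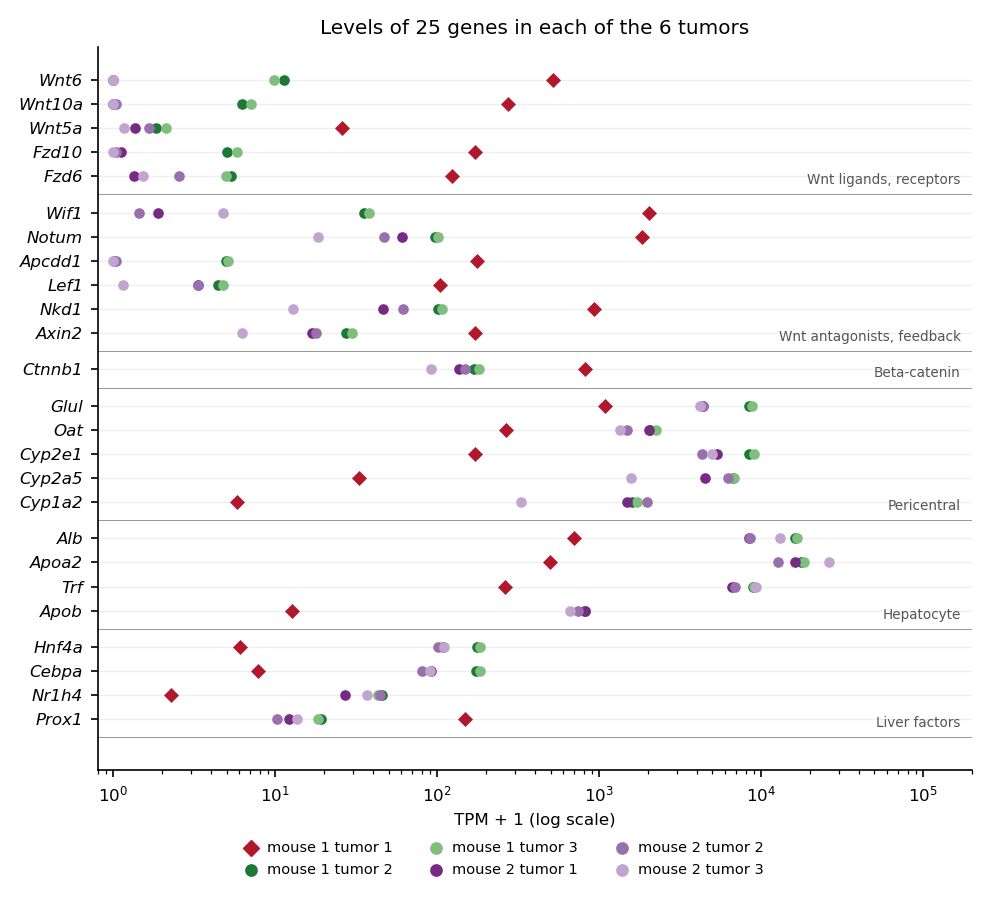
Points give TPM + 1 (log axis) of 25 genes of the Wnt pathway, the pericentral program, hepatocyte identity and the liver factors in each of the 6 tumors, with tumor 1 of mouse 1 as red diamonds, the other tumors of mouse 1 in green and those of mouse 2 in purple. The Wnt genes are highest in the index tumor, with mouse 2 generally lowest, while the pericentral and hepatocyte genes, *Alb* at 702 TPM among them, are lowest in the index tumor.

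Among 19 measured Wnt ligands, 5 were higher and none lower. The 12 that reached 1 TPM had a median log2 difference of 2.93, against 0.96 over all genes tested. Some of these 12 reached it in the index tumor only, and the rest of the 19 stayed under 1 TPM in every tumor. *Wnt6* was at 519.7 TPM in the index tumor, 10.4 and 8.85 TPM in the other tumors of mouse 1 and 0 TPM in all of mouse 2. *Wnt10a*, its neighbor on chromosome 1, was at 273 TPM, against 5.19 and 6.08 TPM in mouse 1 and 0, 0.0346 and 0 TPM in mouse 2. Both ligands act through β-catenin in skin and other epithelia, and both lay far above every other tumor. *Wnt10b* (22.4 TPM against 0 to 0.717), *Wnt5a*, best known for signaling without β-catenin (24.97 TPM against 0.157 to 1.12), and *Wnt9a* (14.00 TPM against 0.0431 to 0.679) completed the group. Summed over the list, ligand levels came to 918 TPM in the index tumor and 3.13 to 25.8 TPM in the others.

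Of 18 receptors and co-receptors, 4 were higher. They were the Frizzled genes *Fzd10* (171 TPM against 0 to 4.76), *Fzd6* (122.7 TPM against 0.336 to 4.29) and *Fzd2* (58.7 TPM against 0 to 1.45), and *Ror1*, a receptor tyrosine kinase that binds Wnt5a (18.3 TPM against 0.167 to 1.13). The other 14 were not called, and 5 of the 18 were at their lowest in the index tumor. The 16 that reached 1 TPM had a median log2 difference of 1.02, close to that of all genes.

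Secreted antagonists and R-spondins gave 4 higher genes of 21 measured, 12 of which reached 1 TPM. *Notum* encodes an enzyme that removes the lipid of Wnt proteins and is a β-catenin target in liver. It was at 1822 TPM in the index tumor, 95.1 and 101 TPM in the other tumors of mouse 1 and 59.5, 45.7 and 17.4 TPM in mouse 2. *Wif1* was joined by *Apcdd1*, a membrane inhibitor of Wnt receptors (175 TPM against 0 to 4.09), and by *Dkk3* (124 TPM against 0.248 to 4.03). The summed level of the list was 4213 TPM against 25.6 to 156 TPM.

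Intracellular feedback genes and other targets of the pathway were higher in 7 of 25 cases. Of the 23 that reached 1 TPM, 20 were at their highest in the index tumor. *Nkd1*, an inhibitor that binds Dishevelled, was at 924 TPM in the index tumor against 100.04 and 105 TPM in mouse 1 and 45.5, 60.1 and 11.9 TPM in mouse 2. *Sp5*, a zinc finger repressor, was at 106 TPM against 15.4 and 15.6 TPM in mouse 1 and 6.68, 6.31 and 4.13 TPM in mouse 2. *Lef1*, the TCF/LEF family member that adult hepatocytes largely lack, was at 103 TPM against 0.148 to 3.75 TPM in the other 5. Unlike *Wnt6* or *T*, *Nkd1* and *Sp5* were present in all 6 tumors, with the index tumor above the other 5. *Tnfrsf19* (Troy, a TNF receptor family member), *Msx1*, *Msx2* and *Bmp4* were the remaining higher genes. *Axin2*, the scaffold used as a general readout of the pathway, was at 170.3 TPM in the index tumor, 26.4 and 28.6 TPM in mouse 1 and 15.8, 16.9 and 5.26 TPM in mouse 2. Its log2 difference of 3.26 fell just short of the 10-fold rule, as did those of *Ccnd1* (3.23) and *Tcf7* (3.04), while *Rnf43*, a ligase that removes Frizzled from the cell surface, differed by 2.60.

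None of the 14 genes listed for β-catenin and its destruction complex was called. The 12 that reached 1 TPM had a median log2 difference of 1.96. The list also holds *Cdh1*, E-cadherin, at 0.989 TPM in the index tumor against 0.288 to 43.7 TPM. Its fall passed 10-fold (log2 -3.82), but tumor 3 of mouse 2 was lower still, so it was not called. *Ctnnb1* itself was at 821 TPM in the index tumor, 168 and 180.5 TPM in the other tumors of mouse 1 and 134, 147 and 91.03 TPM in mouse 2, a log2 difference of 2.47. These values sum all transcripts of the gene and do not separate the allele without exon 3, so they do not check the recombination.

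Promoter windows of 3 higher Wnt-related genes are shown because they differ in the TCF/LEF core motif CTTTGAT, searched on both strands. The sequences are the 250 bases before the RefSeq transcript start on GRCm38.p6, read 5′ to 3′ along the strand of the gene, with matches in capitals. Sp5 lies at chr2:70474673-70474922 (plus strand), Tnfrsf19 (1 of its 2 windows) at chr14:61037988-61038237 (minus strand) and T at chr17:8434173-8434422 (plus strand).
Sp5: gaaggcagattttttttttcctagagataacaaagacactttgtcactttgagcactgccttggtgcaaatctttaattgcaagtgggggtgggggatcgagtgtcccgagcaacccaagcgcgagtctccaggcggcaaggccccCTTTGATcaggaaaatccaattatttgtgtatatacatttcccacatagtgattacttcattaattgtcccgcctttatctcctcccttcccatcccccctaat
Tnfrsf19: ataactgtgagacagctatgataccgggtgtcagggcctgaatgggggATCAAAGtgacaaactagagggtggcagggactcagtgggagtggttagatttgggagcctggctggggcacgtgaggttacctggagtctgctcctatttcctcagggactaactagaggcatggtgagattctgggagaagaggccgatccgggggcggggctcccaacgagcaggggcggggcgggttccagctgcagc
T: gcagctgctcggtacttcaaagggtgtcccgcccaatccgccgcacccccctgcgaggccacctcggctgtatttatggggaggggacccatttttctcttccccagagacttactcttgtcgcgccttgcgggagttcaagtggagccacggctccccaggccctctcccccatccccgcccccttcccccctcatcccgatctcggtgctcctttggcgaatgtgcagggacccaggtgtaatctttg
The match began 104 bases before the start in *Sp5* and 202 bases before it in *Tnfrsf19*, and the window of *T* held none. A match is only a match of letters, and its absence says nothing about the factor.

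Other developmental pathways contributed ligands, receptors and antagonists to the higher genes. In the list of BMP and TGF-β ligands and antagonists 14 of 50 measured genes were higher. The 35 that reached 1 TPM had a median log2 difference of 2.13. *Nog*, the BMP antagonist noggin, was at 75.4 TPM against 0 to 1.90 TPM. *Bmp4*, a BMP ligand of mesoderm and skin appendages, was at 165 TPM against 0.425 to 2.72 TPM. *Bmp3*, a BMP family ligand of bone, was at 40.5 TPM against 0 to 0.792 TPM. The summed level of the list was 1718 TPM against 183 to 255 TPM in the other tumors.

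In the list of FGF ligands, receptors and targets 5 of 33 were higher and 1 lower. *Etv5*, an ETS factor induced by FGF signaling, was at 106 TPM against 0.654 to 4.75 TPM. *Fgf20*, a ligand of hair placode and inner ear, was at 35.9 TPM against 0 to 0.415 TPM. *Etv4*, the close relative of Etv5, was at 31.9 TPM against 0 to 0.579 TPM. All 3 lay far above the range of the other tumors. The lower gene was *Fgf21*, a hormone that liver secretes on fasting, at 1.61 TPM against 29.8 to 111 TPM. The Hedgehog list gave 4 of 14, namely *Shh*, its ligand (89.7 TPM against 0 to 2.31), *Smo*, its signal transducer (34.1 TPM against 0.191 to 1.63), and the co-receptors *Cdon* (16.2 TPM against 0.00812 to 0.661) and *Gas1* (22.96 TPM against 0 to 1.15). *Dner*, a membrane protein with Notch-binding repeats, was at 70.3 TPM against 0.148 to 1.62 TPM. *Hes1*, a repressor that Notch induces, was at 70.9 TPM against 5.27 to 11.6 TPM. *Hey2*, a related repressor, was at 10.9 TPM against 0 to 0.276 TPM. These were the 3 called of 25 measured Notch pathway genes, and *Hes1* alone among them was clearly present in every tumor. *Epha7*, an ephrin-A receptor, was at 56.3 TPM against 0.0308 to 1.27 TPM. *Ephb6*, an Eph receptor without kinase activity, was at 26.7 TPM against 0 to 0.856 TPM. *Epha8*, an ephrin-A receptor of neural tissue, was at 13.7 TPM against 0 to 0.283 TPM. Of 22 ephrins and Eph receptors these 3 were called, and of 49 semaphorins, plexins, netrins, slits and robos 6 were higher and 1 lower. Of genes that reached 1 TPM, 23.8% were higher in the FGF list, 36.4% in the Hedgehog list and 16.7% in the Notch list. The last 2 groups had 18.8 and 15.4%, against 5.98% over all genes tested.

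Transcription factors are described by structural class, 573 measured factors in all, of which 291 reached 1 TPM, 43 were higher and 16 were lower. The T-box class had 4 higher genes among 17. Besides *T* these were *Tbx1* (128 TPM against 0 to 2.78), *Tbx4* (41.03 TPM against 0 to 1.08) and *Tbx2* (28.5 TPM against 0.438 to 1.38), factors of pharyngeal, limb and heart development. All 8 T-box genes that reached 1 TPM were at their highest in the index tumor, but a gene silent elsewhere could reach it only there. In the index tumor 4 of the 17 were at 0.

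The HOX genes, which give position along the body axis in the embryo, were called from 1 cluster only. Every one of the 9 measured Hoxd genes reached 1 TPM in the index tumor, from 2.92 to 90.6 TPM and 290.5 TPM in sum, and their highest value in any other tumor was 1.64 TPM. *Hoxd8* was at 90.6 TPM in the index tumor, 1.51 and 1.62 TPM in the other tumors of mouse 1 and 0.0129, 0.0145 and 0 TPM in mouse 2. *Hoxd9* (45.9 TPM), *Hoxd10* (54.6 TPM), *Hoxd11* (43.9 TPM) and *Hoxd4* (37.6 TPM) were also called. The 11 Hoxa genes summed to 1.53 TPM in the index tumor, the 10 Hoxb genes to 0.254 TPM and the 9 Hoxc genes to 0.709 TPM. *Hoxd11*, *Hoxd10*, *Hoxd9* and *Hoxd8* are neighbors at chr2:74679558-74707933 (GRCm38.p6), and formed 1 of 16 runs of at least 3 adjacent higher genes.

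Other homeodomain factors of the ANTP and PRD classes were higher in 11 of 82 cases, 23 of which reached 1 TPM and 40 of which were at 0 in the index tumor. *Pitx1*, a hindlimb and pituitary factor, was at 211 TPM in the index tumor, 5.45 and 6.42 TPM in mouse 1 and 0 TPM in mouse 2. *Msx1*, a homeobox factor of tooth and limb buds, was at 83.7 TPM against 0 to 1.60 TPM. *Gbx2*, a homeobox factor of the midbrain-hindbrain boundary, was at 82.99 TPM against 0 to 2.40 TPM. *Dlx3*, *Dlx1*, *Dlx5* and *Msx2*, which take part in tooth, limb and skin development, were also called. The LIM, IRX, MEIS and POU classes added 3 of 60, *Pou3f3* (17.01 TPM against 0 to 0.541), *Irx5* (12.3 TPM against 0 to 0.252) and *Prox1*. Of the bHLH factors 7 of 81 were higher and 3 lower. *Ascl5*, an achaete-scute factor, was at 198 TPM against 0 to 5.15 TPM. *Olig3*, a bHLH factor of the neural tube, was at 107 TPM against 0 to 2.76 TPM. *Ascl4*, an achaete-scute factor of skin, was at 37.2 TPM against 0 to 0.680 TPM. ETS factors gave 3 of 26, *Etv5*, *Etv4* and *Fli1*, an endothelial and blood factor (21.3 TPM against 0.708 to 1.98). The zinc finger list of SNAI, GLI, ZIC, SALL, PRDM and EGR factors gave 4 of 51, *Prdm6* (210.0 TPM against 0 to 3.99), *Bcl11a* (32.1 TPM against 0.0278 to 0.897), *Osr2* (18.3 TPM against 0 to 0.553) and *Glis2* (16.7 TPM against 0.0933 to 0.728). SOX factors and the group of PAX, EYA and related factors had 1 higher gene each, the GATA, KLF and SP group had 2, and no forkhead gene was higher.

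**Figure D3:**
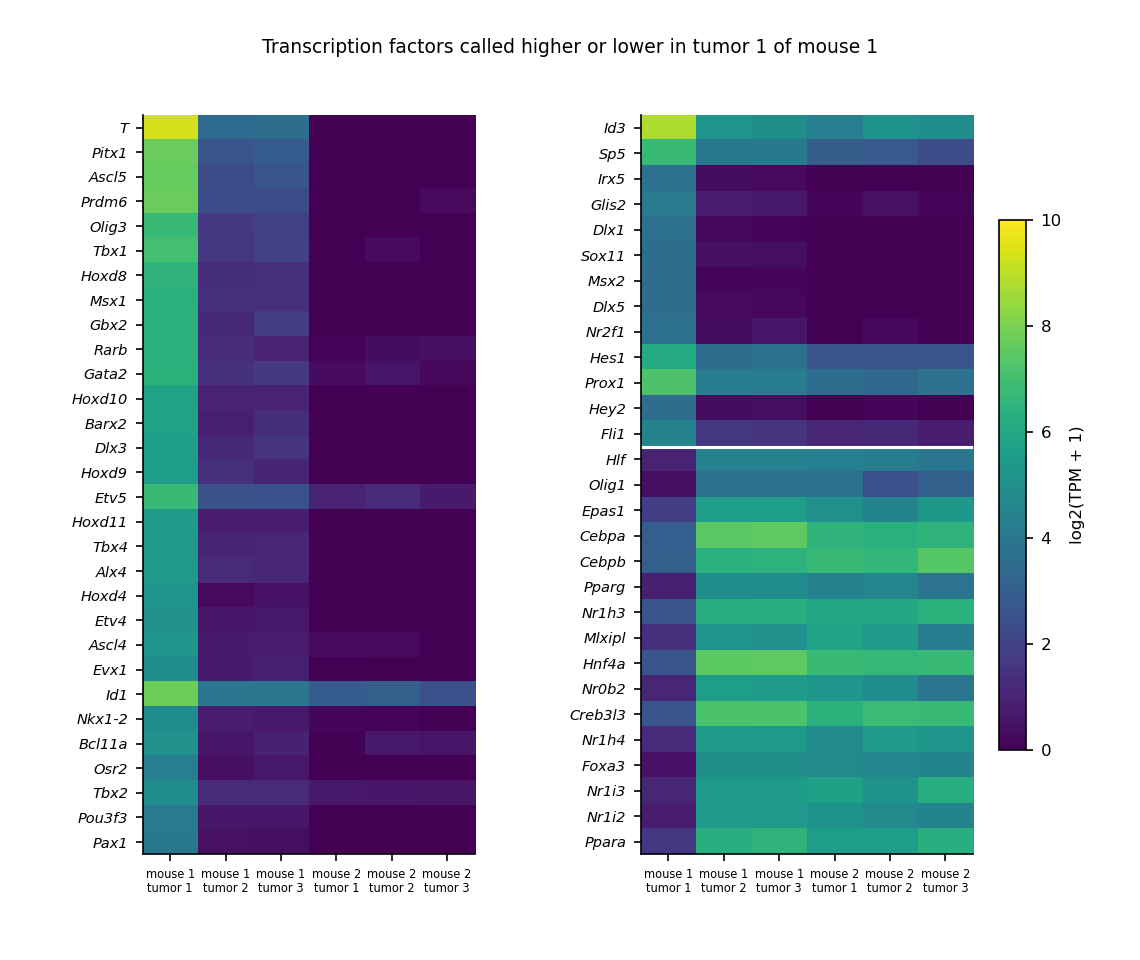
Each row is 1 of the 43 higher (above the white line) or 16 lower transcription factors, each column is 1 tumor, and color gives log2(TPM + 1), with light colors for high levels. In the index tumor *T* has the highest level of these factors, most higher factors are dark in mouse 2, and *Hnf4a*, *Cebpa* and the other lower factors are dark in the index tumor.

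The liver-enriched factors moved the other way, with 12 of 28 lower, 1 higher and a median log2 difference of -3.01. *Hnf4a*, the nuclear receptor at the center of the hepatocyte network, was at 5.08 TPM in the index tumor, 176 and 182 TPM in the other tumors of mouse 1 and 107, 99.6 and 108 TPM in mouse 2. *Cebpa* was at 6.83 TPM against 79.7 to 183 TPM, and *Nr1i3*, the xenobiotic receptor CAR, at 1.10 TPM against 34.5 to 73.1 TPM. *Nr1h4*, the bile acid receptor FXR, was at 1.27 TPM against 26.1 to 44.4 TPM. *Cebpb*, *Foxa3*, *Nr1i2*, *Ppara*, *Nr1h3*, *Mlxipl*, *Nr0b2* and *Creb3l3* were the remaining lower factors, and many of them are receptors or sensors for bile acids, lipids, sugars and foreign compounds. *Prox1*, which is expressed in embryonic hepatoblasts, in hepatocytes and in lymphatic endothelium, was the exception at 147 TPM against 9.26 to 18.04 TPM. A list of 43 nuclear receptors, which leaves out several of the receptors above, had 4 lower and 2 higher, and a list of 50 bZIP factors had 4 lower and none higher.

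Hepatocyte identity genes were lower almost throughout. Of 42 measured, 39 were lower and none higher, the median log2 difference was -4.74, and their summed level was 3337 TPM in the index tumor against 73575 to 105989 TPM in the others. *Apoa1* (170.1 TPM against 4096 to 8542), *Apob* (11.6 TPM against 655 to 821) and *Apoc1* (230.3 TPM against 9893 to 17315), proteins of lipoprotein particles, were all below every other tumor. The 3 genes not called were *Arg1* (20.9 TPM against 3.47 to 38.6), *Cps1* (1.60 TPM against 0.501 to 112) and *Serpina1e* (17.7 TPM against 1.64 to 11.9). In a bulk sample fewer hepatocytes and less of each mRNA per hepatocyte cannot be told apart. The other 5 tumors carried hepatocyte genes at high levels. Of 17 fetal liver and hepatoblast genes, *Afp* was at 0.536 TPM in the index tumor and 3 were higher, *Igf2* (31.6 TPM against 0 to 0.617), *Cd24a* (237 TPM against 0.826 to 15.1) and *Peg3* (28.1 TPM against 0 to 0.650). The 12 that reached 1 TPM had a median log2 difference of 0.64, against 0.96 over all genes tested. Of these 12, 5 were at their highest in the index tumor and 4 at their lowest.

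Promoter windows of 3 lower genes are shown because they hold the core letters GTTAAT, bound by HNF1, or CAAAGTCCA, bound by HNF4, again searched on both strands and drawn in capitals over the 250 bases before the start. Alb lies at chr5:90460620-90460869 (plus strand), Hnf4a (1 of its 2 windows) at chr2:163546905-163547154 (plus strand) and Cyp2c70 at chr19:40187287-40187536 (minus strand).
Alb: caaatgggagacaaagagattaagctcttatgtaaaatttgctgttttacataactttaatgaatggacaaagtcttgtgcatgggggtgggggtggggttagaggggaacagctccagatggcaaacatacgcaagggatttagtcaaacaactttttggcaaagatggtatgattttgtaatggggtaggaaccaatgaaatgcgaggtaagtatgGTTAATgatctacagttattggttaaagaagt
Hnf4a: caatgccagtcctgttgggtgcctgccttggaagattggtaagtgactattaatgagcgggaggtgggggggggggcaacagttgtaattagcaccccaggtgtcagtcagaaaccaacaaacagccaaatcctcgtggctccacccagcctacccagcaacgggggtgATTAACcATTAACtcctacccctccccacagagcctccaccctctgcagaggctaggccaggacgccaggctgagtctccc
Cyp2c70: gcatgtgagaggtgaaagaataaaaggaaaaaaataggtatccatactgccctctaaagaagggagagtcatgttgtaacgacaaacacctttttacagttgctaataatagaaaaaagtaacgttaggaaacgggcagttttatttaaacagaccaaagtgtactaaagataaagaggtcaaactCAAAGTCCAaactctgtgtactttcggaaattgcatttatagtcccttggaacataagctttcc
The HNF1 letters began 32 bases before the start of *Alb* and 81 and 74 bases before that of *Hnf4a*, where both matches read as the reverse complement. The HNF4 letters began 64 bases before the start of *Cyp2c70*, a P450 enzyme of bile acid metabolism that was at 3.99 TPM in the index tumor and 74.99 to 286 TPM in the others.

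**Figure D4:**
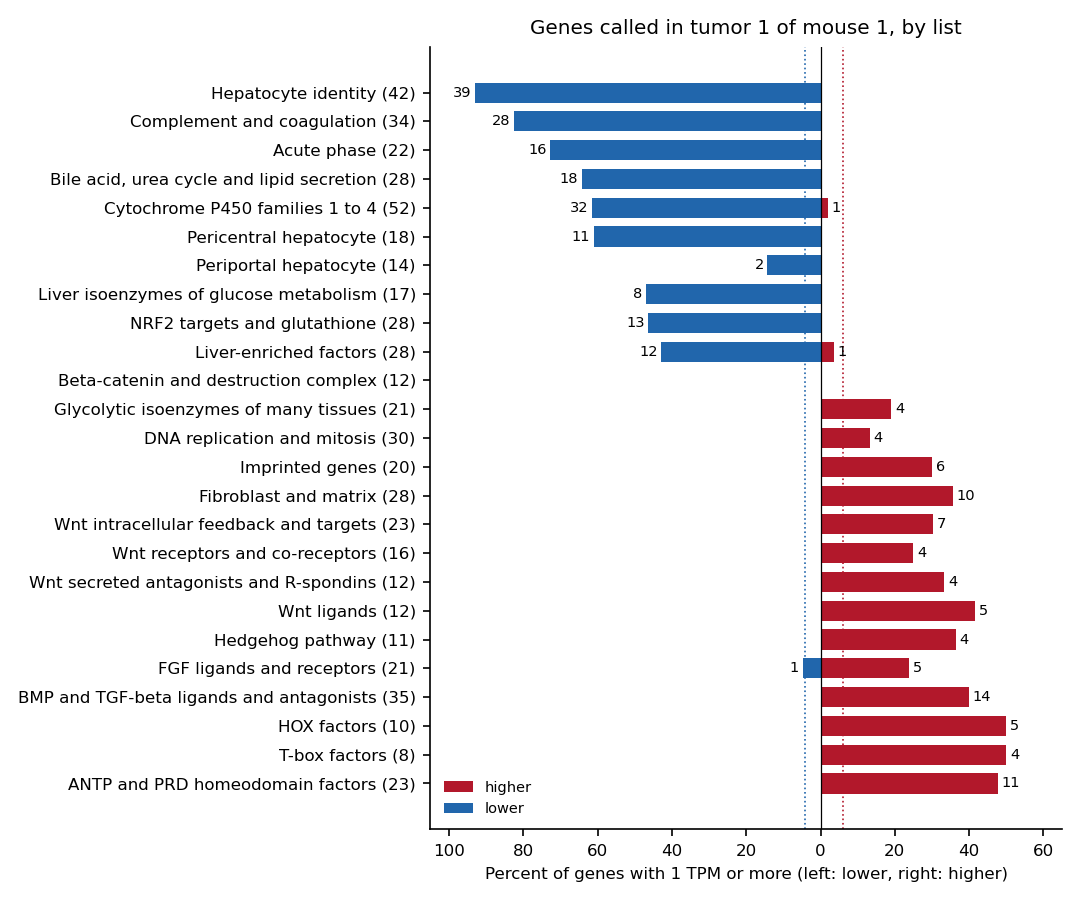
Bars give, for each gene list, the percentage of its members that reached 1 TPM (their number in parentheses) and were lower (blue, left) or higher (red, right) in tumor 1 of mouse 1, with the count at the end of each bar. Dotted lines mark 4.28% lower and 5.98% higher over all genes tested, and 39 of 42 hepatocyte identity genes lie on the lower side against 14 of 35 BMP and TGF-β genes on the higher side.

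Genes of liver metabolism were lower in most lists. Of 75 cytochrome P450 genes of families 1 to 4, 52 reached 1 TPM, 32 were lower and 1 was higher. *Cyp1a2*, which oxidizes caffeine and aromatic amines, showed the largest fall, 275-fold, from 327 to 1976 TPM in the other tumors to 4.79 TPM. *Cyp2a5* was at 31.9 TPM against 6717 and 6748 TPM in mouse 1 and 4525, 6263 and 1562 TPM in mouse 2, although reads of this gene and of its near copy *Cyp2a4* may have been divided between them. Pericentral genes were lower in 11 of 18 cases and periportal genes in 2 of 17. Over the 18 and 14 of them that reached 1 TPM, the median log2 differences were -4.98 and -1.72. After median-of-ratios scaling the counts were 12 and 5. A lower call needed a median of at least 9 TPM in the others. The median sum there was 721 TPM for periportal and 23703 TPM for pericentral genes, so fewer periportal genes may have been open to a call. *Glul*, glutamine synthetase and the classic pericentral target of β-catenin, was not called, at 1085 TPM in the index tumor, 8365 and 8760.5 TPM in mouse 1 and 4356, 4358 and 4197 TPM in mouse 2. *Oat*, ornithine aminotransferase, another such target, was also not called, with a log2 difference of -2.93. Both were nonetheless at their lowest in the index tumor, on the side opposite to *Notum*, *Nkd1* and *Sp5*.

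Complement and coagulation factors were lower in 28 of 34 cases, acute phase genes in 16 of 22, and genes of bile acid synthesis, the urea cycle and lipid secretion in 18 of 28. *C4b*, complement component 4, was at 4.12 TPM against 151 to 252 TPM. *Mbl2*, a mannose-binding lectin that starts complement, was at 12.8 TPM against 347 to 697 TPM. *C3*, the central complement component, was at 35.3 TPM against 998 to 1849 TPM. These proteins are made by hepatocytes and secreted into plasma. *Apoc4*, another small apolipoprotein, was at 30.6 TPM against 1438 to 2895 TPM. *Apoa4*, an apolipoprotein of intestine and liver, was at 19.3 TPM against 511 to 4173 TPM. *Abcc2*, the canalicular exporter of conjugates, was at 2.98 TPM against 114 to 179.5 TPM. No member of these 3 lists was higher. The NRF2 and glutathione list, which covers antioxidant and conjugating enzymes, had 13 of 28 lower, led by *Gsta2*, *Gsta1* and *Gstm3*, of which *Gstm3* was at 18.4 TPM against 725 to 1826 TPM and the other two share reads with near copies. Of 17 liver isoenzymes 8 were lower, and of 21 glycolytic isoenzymes used by many tissues 4 were higher, *Pkm* (1032 TPM against 5.74 to 73.5), *Hk1* (31.7 TPM against 0.380 to 3.30), *Pfkp* (29.8 TPM against 0.318 to 2.06) and *Slc16a3*, a lactate carrier (105 TPM against 0.0617 to 2.83). *Gys2*, liver glycogen synthase, was at 2.51 TPM against 66.01 to 102 TPM. *Slc2a2*, the liver glucose transporter GLUT2, was at 5.02 TPM against 100.5 to 193 TPM. Proline, serine and asparagine synthesis had 4 of 23 higher, among them *Pycr1* (1064 TPM against 0.503 to 27.8), *Asns* (398 TPM against 0.501 to 10.2) and *Phgdh* (34.8 TPM against 0.427 to 6.36), and 1 lower, *Prodh*, which breaks proline down (3.23 TPM against 56.6 to 114). Among metallothioneins and zinc transporters *Mt3*, a form known from brain, was at 717 TPM in the index tumor, 13.3 and 11.8 TPM in mouse 1 and 0 TPM in mouse 2.

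Genes of cell division stood at their highest in the index tumor, though few met the 10-fold rule. All 30 genes of DNA replication and mitosis were at their highest in the index tumor, with a summed level of 1263 TPM against 170 to 197 TPM, and 4 were called, *Top2a* (97.4 TPM against 2.03 to 4.76), *Ccna2* (39.05 TPM against 1.97 to 3.03), *Bub1* (20.9 TPM against 0.596 to 1.99) and *Ube2c* (112 TPM against 6.64 to 12.3). Of 92 cytosolic ribosomal protein genes 85 reached 1 TPM, and 84 of these were at their highest in the index tumor. The summed level of the 92 was 224993 TPM against 42860 to 70577 TPM. Only 3 ribosomal protein genes were called, and reads of this family may be divided with its many processed copies. Imprinted genes gave 6 of 25, *Igf2*, *Peg3*, *Ndn*, *Nnat*, *Sgce* and *Mest*, several of which are active in the fetus and silent in adult liver.

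Lineage markers of other tissues were higher in part of some lists. The primitive streak and presomitic mesoderm list had 6 of 30 higher, 12 of the 30 reached 1 TPM, and 10 were at 0 in the index tumor. Of the 6, *T*, *Sp5*, *Shh* and *Fgf8* were already counted in lists above. The neuronal and neuroendocrine list had 5 of 30, *Uchl1* (348 TPM against 0.435 to 6.38), *Map2* (73.7 TPM against 0.0827 to 1.33), *Tubb3* (36.4 TPM against 0 to 1.00), *Cpe* (202 TPM against 0.441 to 8.87) and *Syt1* (43.4 TPM against 1.67 to 7.69). Skeletal and cardiac muscle gave 3 of 20, the troponin genes *Tnnt2*, *Tnni1* and *Tnnt1*, and 8 of the 20 were at 0. Pluripotency and germ cell, kidney, gonad and adrenal, and cartilage and bone lists had 1 higher gene each, and the skin and hair list had 2. In these lists 3, 6, 9 and 7 genes reached 1 TPM. No higher gene came from the lists of intestinal epithelium, cholangiocyte, trophoblast, or pancreas, lung, stomach and thyroid, in which 5, 9, 2 and 2 genes reached 1 TPM. With 5.98% higher over all genes tested, nothing is read from counts in lists this small. Peptide hormones and neuropeptides had 3 of 34 higher, and *Cck* alone made up nearly all of their summed 4507 TPM.

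Epithelial and mesenchymal genes were mixed. The list of epithelial junctions and keratins had 5 lower and 2 higher genes of 32, which became 9 and 1 after median-of-ratios scaling and 8 and 2 in CPM. *Krt8* (21.7 TPM against 378 to 687) and *Krt18* (37.6 TPM against 297 to 487), the keratins of hepatocytes, were lower with *Crb3*, *Cldn2* and *Cldn3*, while *Krt14*, a keratin of basal epithelia (39.9 TPM against 0 to 0.514), and *Cldn1* (268 TPM against 15.8 to 29.9) were higher. Among 21 mesenchymal state genes 4 were higher, *Vim* (1144 TPM against 8.55 to 57.1), *Cdh11* (104 TPM against 0 to 1.47), *Mmp2* (72.6 TPM against 0.144 to 2.99) and *S100a4* (81.6 TPM against 2.81 to 11.4). Of 99 cadherins and protocadherins 58 reached 1 TPM, and 54 of these were at their highest in the index tumor. By the rule 10 were called higher, a count that became 32 in CPM without length scaling and 4 after median-of-ratios scaling.

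Markers of other cell types were read beside these results. In the fibroblast and matrix list 10 of 30 were higher and the summed level was 5132 TPM against 265 to 513 TPM, led by *Ptn*, a heparin-binding growth factor (1306 TPM against 0 to 21.9), *Islr* (834 TPM against 0.108 to 18.4), *Htra1*, a secreted protease (662 TPM against 0.311 to 17.9), and *Cthrc1*, a secreted glycoprotein (517 TPM against 0 to 5.52). The 28 members that reached 1 TPM had a median log2 difference of 0.81, against 0.96 over all genes tested. Of these 28, 16 were at their highest in the index tumor and 1 at its lowest. The fibrillar collagens that define fibroblasts did not go with the higher genes. *Col1a1* was at 1.67 TPM in the index tumor against 0.725 to 3.23 TPM, *Col1a2* at 1.89 TPM against 1.01 to 3.84 TPM, and *Col3a1* at 3.02 TPM against 2.70 to 12.2 TPM. Macrophage and Kupffer cell markers summed to 133 TPM against 249.5 to 929 TPM with 2 of 20 lower, endothelial markers to 95.5 TPM against 105 to 218 TPM with 1 of 20 higher, and B cell markers to 4.59 TPM against 15.2 to 36.2 TPM with none called. Neutrophil and dendritic cell markers summed to 116 TPM against 173 to 948 TPM. Stellate and smooth muscle markers summed to 327 TPM against 34.4 to 132 TPM with 3 of 16 higher, *Cygb*, *Ngfr* and *Acta2* (50.05 TPM against 1.29 to 4.56). The 14 of this list that reached 1 TPM had a median log2 difference of -0.32. Of these, 4 were at their highest in the index tumor and 2 at their lowest. T and NK cell markers summed to 49.3 TPM against 5.36 to 19.6 TPM, and 46.3 TPM of that was *Cd4*, while 9 of the 17 were at 0. Red cell and platelet markers summed to 1582 TPM against 1035 to 11091 TPM. The part of cell composition in the contrast was not tested.

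The 317 higher genes with at least 50 TPM in the index tumor stood at a median of 3.30% of that level in tumor 2 of mouse 1 and 3.16% in tumor 3, with upper quartiles of 6.15 and 5.88% and highest values of 21.7 and 16.4%. Of these, 36 genes had 0 counts in all 3 tumors of mouse 2, and their values were lower and closer together. In tumor 2 of mouse 1 the 36 genes stood at a median of 1.76% of their level in the index tumor, with quartiles of 1.38 and 2.02%, and in tumor 3 at 1.88%, with quartiles of 1.45 and 2.53%. None of the 36 exceeded 3.04%, and 5 were at 0 in each of these tumors. *T*, *Wnt6*, *Pitx1* and *Mt3* were among the 36, with *Pitx1* above the upper quartile in both libraries. The 36 were chosen for 0 counts in mouse 2, which leaves out genes with a level of their own there. The 195 lower genes with a median of at least 200 TPM remained in the index tumor at a median of 3.34% of that median, with quartiles of 2.67 and 5.14%, and 145 of them were under 5%. Whether the low levels were expression in those tumors or material carried over between samples was not tested, so the values printed for mouse 1 may not be levels of tumors 2 and 3 for genes such as *Cck*, *T*, *Wnt6*, *Pitx1* and *Mt3*.

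**Figure D5:**
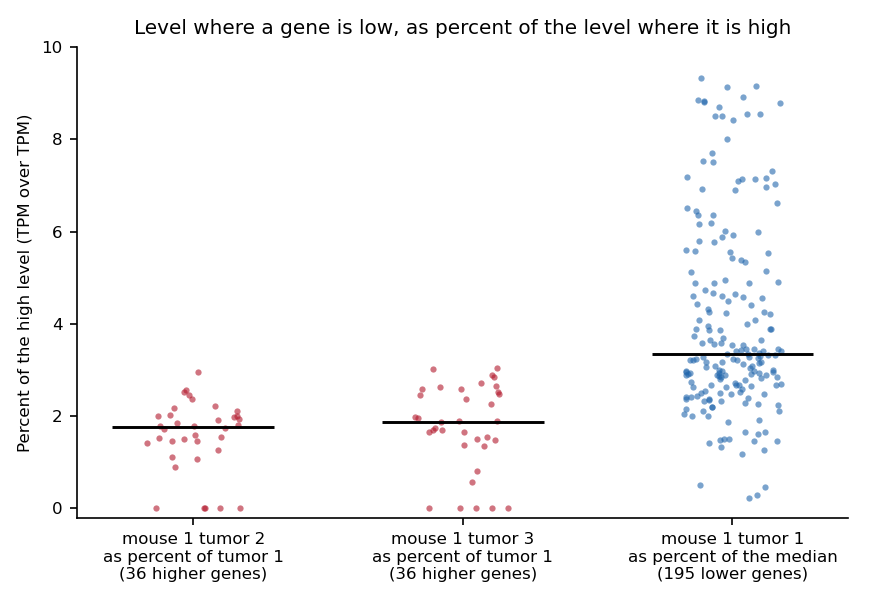
Each point is 1 gene, and the vertical axis gives its level where it is low as a percentage of its level where it is high: 36 higher genes in tumors 2 and 3 of mouse 1 relative to tumor 1 (red), and 195 lower genes in tumor 1 relative to the median of the other 5 tumors (blue). Black bars mark the medians of 1.76, 1.88 and 3.34%.

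Higher and lower genes lay on every autosome and on X, in unequal shares. Higher shares ran from 3.72% of placed genes on chromosome 17 to 10.06% on chromosome 18. Lower shares ran from 2.14% on X to 7.41% on chromosome 15. Of 13233 tested genes with a position in RefSeq on GRCm38.p6, 6.15% were higher and 4.52% lower, and 16 runs of at least 3 neighboring higher genes held 51 genes while 28 runs of lower genes held 105. The higher runs included *Pycr1*, *Myadml2* and *Notum* at chr11:120638998-120661193 and *Stra6*, *Islr* and *Islr2* at chr9:58063793-58204319. The lower runs were largely tandem families of liver genes, such as *Serpina10*, *Serpina6* and 4 *Serpina1* genes at chr12:103616675-103904950 and 6 *Cyp4a* genes at chr4:115299046-115622507, whose members can share reads, and the fibrinogen genes *Fgg*, *Fga* and *Fgb* at chr3:83007724-83049863. The lower genes had shorter transcripts, with a median annotated length of 1956 bases against 2587 for the higher genes and 2505 for all tested genes that had a length.

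Windows of 300 bases around the start (250 before to 50 after) were compared over 794 windows of higher genes, 577 windows of lower genes, 13574 windows of all genes tested and 32851 windows in the whole RefSeq table. The HNF1 letters occurred in 14.4% of windows of lower genes and 6.68% of those of higher genes, against 4.83% for genes tested and 7.10% in the table. The HNF4 letters occurred in 3.64% of windows of lower genes and 0.13% of those of higher genes, against 0.55% and 0.47%. For TATAAA the shares were 17.5% and 8.44%, against 7.85% for genes tested and 13.6% in the table. Lower genes thus held each of these motifs more often than either background. The AP-1 letters TGANTCA were found in 11.8% of windows of lower genes and 4.03% of those of higher genes, against 5.36% and 7.81%. The TCF/LEF letters differed less, at 3.29% for lower genes and 3.02% for higher genes, above the 2.62% of genes tested and under the 3.73% of the table. The T-box letters TCACACCT stood at 1.56% and 0.88%, against 0.90% and 1.28%. Median GC was 52.3% in windows of lower genes, 60.7% in those of higher genes and 60.3% in those of genes tested, and the median observed to expected ratio of CpG pairs was 0.268, 0.632 and 0.729. Several windows of 1 gene can overlap, so these shares are a description.

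At the edge of the rule, *Inpp4b*, *Ddit4*, *Hbegf*, *Npl* and *Smarca1* lay just inside on the higher side (log2 3.32 to 3.33) and *Sipa1l2*, *Rbl1*, *Btg1*, *Cdk1* and *Zswim8* just outside (3.32). On the lower side *Nox4*, *Sec14l4*, *Thrsp* and *Lsr* lay just inside (-3.35 to -3.33) and *Shtn1*, *Nme1nme2*, *Retsat*, *Tmem205* and *Dusp23* just outside (-3.32 to -3.31). Past the fold but with overlapping values were 4 genes on the higher side and 12 on the lower side, and these were not counted. Because 1 TPM was added before the ratio, the folds understate the change of genes at low levels. Of the higher genes 144 had 0 counts in all 3 tumors of mouse 2 and 11 had 0 counts in all 5 other tumors. *Ybx2*, a germ cell RNA-binding protein, was 1 of these, with 91 counts in the index tumor, at least 26.9-fold above a floor of 3 counts per library, and 9 were predicted genes and pseudogenes with Gm numbers.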

How the data were processed

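RNA from 6 excised tumors was made into poly A-enriched libraries and sequenced as read pairs. The authors deposited 1 transcript table per tumor with an estimated count and a TPM for each of 116546 mouse transcripts, in the layout that Salmon writes. Per the labels, GRCm38 was the build, and BWA and Picard are named in the submitters' processing notes without versions or role. Transcripts were matched to genes by Ensembl ID through a GENCODE annotation of a later build, used for names only (114813 matched and 1733 did not), and the deposited TPM and estimated counts were summed over the transcripts of a gene, which gave 35683 genes. TPM does not correct for the makeup of a library, so when some genes take a large share the others fall.

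Genes that reached 1 TPM in at least 1 tumor were compared on log2(TPM + 1), the index tumor against the median of the other 5, and called at 10-fold with no overlap. No p-value was computed. Some genes that the naming rule would include are not reported here. Genes named were the 6 markers, the 25 largest folds in each direction among protein-coding genes, up to 4 called and 2 uncalled members of each of 74 lists, the genes at the threshold, and members of lists of 20 or fewer. Further genes were named after their values were seen (the fibrillar collagens *Col1a1*, *Col1a2* and *Col3a1*, *Nkd1*, *Rnf43*, *Tcf7*, *Nr1h3*, *Nr1h4*, *Mlxipl*, *Cyp2c70*, *Ybx2*, *Stmn1*, *Serpina1e*, members of gene runs, and the remaining called members of short counts). The genes and lists were chosen with earlier results of these data known, and 1 further list was added after the values were seen. Positions and promoter windows came from RefSeq on GRCm38.p6, and other settings, each changed alone, are given with the closing observations. Intervals were not computed, since counts carry estimation error from reads shared by transcripts. Python 3.11.15, numpy 2.4.6, pandas 2.3.3 and matplotlib 3.10.9 were used.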

Additional observations from a re-analysis of the deposited data

How the results depend on the processing

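No paired analysis was possible because 1 tumor is set against 5 and no test was run. The pseudocount and the fold threshold moved the number of called genes in both directions. With 0.1 TPM in place of 1 there were 2266 higher and 949 lower genes, and with 5 TPM there were 270 and 338. A threshold of 5-fold gave 2129 and 1026 genes and 1 of 20-fold gave 381 and 286. Median-of-ratios scaling gave 447 higher genes and left the 614 lower genes called among its 838, and under it the higher genes of the BMP and TGF-β list fell to 7, Wnt ligands to 3, Wnt feedback genes to 3 and replication genes to 1, while 39 hepatocyte identity and 5 HOX genes were called as before. That scaling moves the index tumor down against the others, so the lower genes kept under it are no check. Of 2072 list counts under the alternatives, 284 moved by over 1.5 times or from 0. *Prox1* was not called after median-of-ratios scaling, and lower proline and serine genes became 4 and lower macrophage markers 5. Leaving out 1 of the other tumors gave 774 to 920 higher and 582 to 642 lower genes. CPM without length scaling, removal of mitochondrial genes, protein-coding transcripts alone, the mean in place of the median, a mean filter, and the tumors of mouse 1 or of mouse 2 alone kept both counts within 1.5 times, and so did counting tumors 2 and 3 of mouse 1 as 1 sample (914 and 583), an alternative chosen after seeing the data. Over 14 alternatives none of the 3024 fold values of the 216 called genes among 364 checked by name changed direction. These genes were chosen as at least 10-fold apart, so a reversal was hardly possible and its absence is no check. Of the 5096 fold values of all 364 genes, 1176 moved by at least the standard deviation of the gene among the other 5 tumors.

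The contrast rests on 1 tumor, so its spread cannot be estimated. Counts limit the lowest genes only, since 16 higher genes had under 100 counts. Cell makeup, purity and shared reads were not measured by any other assay here.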

Other observations

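A list of 40 genes known from tooth and hair placodes, the epithelial buds in which teeth and hair begin, was drawn up after the values were seen, because several of its members had already stood out, so its count describes the choice as much as the tumor. Of its members 28 reached 1 TPM and 20 were higher, none was lower, and the summed level was 2258 TPM in the index tumor against 11.1 to 59.1 TPM in the others. Ligands of 4 families were among them, *Wnt6*, *Wnt10a* and *Wnt10b*, *Shh*, *Fgf20* and *Fgf8*, and *Bmp4*, *Bmp7* and *Bmp2*, beside the homeobox genes *Msx1*, *Msx2*, *Pitx1*, *Barx2*, *Dlx3*, *Dlx1* and *Dlx5*. *Krt17*, a keratin of hair follicles, was at 70.5 TPM in the index tumor, 1.75 and 1.89 TPM in the other tumors of mouse 1 and 0, 0.0698 and 0 TPM in mouse 2. The list was not complete in the tumor, since 7 members were at 0, and *Edar*, the placode receptor of ectodysplasin, was at 3.27 TPM.

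Other lists add single genes. Among 44 collagens 5 were higher, and none was a major collagen of scar tissue. They were *Col23a1* (101 TPM against 0.00898 to 3.30), *Col7a1* of skin anchoring fibrils (51.8 TPM against 0 to 0.760), *Col9a2* (30.5 TPM against 0 to 0.462), *Col11a1* (10.9 TPM against 0 to 0.182) and *Col25a1* (10.3 TPM against 0 to 0.227). In the list of p53 targets and CDK inhibitors 2 of 20 were higher, *Cdkn2a*, the locus of p16 and p19ARF (36.04 TPM against 0.883 to 4.23), and *Pmaip1*, which encodes Noxa (29.3 TPM against 0.343 to 1.63). Antigen presentation had 3 of 18 lower (7 after median-of-ratios scaling), among them the immunoproteasome subunits *Psmb8* (4.71 TPM against 73.7 to 106) and *Psmb9* (2.76 TPM against 34.8 to 71.8). The plasminogen list of 8 genes had *Plg* lower (14.03 TPM against 357 to 625) and *Serpine2*, a protease inhibitor, higher (29.6 TPM against 0.0472 to 1.19). *Tet3* was the higher gene of 25 in the SWI/SNF, Polycomb and DNA methylation list, the glial, neural crest and melanocyte list had 1 higher and 1 lower of 20, and no gene was called among 23 of the unfolded protein response, 22 major urinary proteins or 13 mitochondrially encoded proteins. The last were at a median log2 difference of -0.84.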
